A study of Mus musculus with 9 samples.

Results

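The genes described here are 49 synaptic genes of the mouse, chosen by name as genes of synaptic vesicles and their release, of trans-synaptic adhesion and of the scaffold behind the postsynaptic membrane. A gene was a member if its symbol stood in that list. The list itself was chosen with earlier results of these data known, so it is not independent of them. All 49 were found among the 54513 genes of the deposited table, 1 row each, and all 49 passed the filter on low counts with 18690 genes in all. By role, 26 serve presynaptic release (17 of the vesicle and its fusion, 6 of the active zone and 3 that load transmitter), 9 serve adhesion and 14 belong to the postsynaptic scaffold, which includes 2 subunits of CaMKII.

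Polyadenylated RNA of tissue labelled hippocampus was sequenced from 3 mice in each of 3 groups, and every group ate a high-fat diet for 12 weeks. In the Trp group this diet (H10045) had 0.5% tryptophan by weight added. In the IPA group the mice on this diet were gavaged each day with indole-3-propionic acid (IPA), a bacterial product of tryptophan, at 100 mg/kg body weight in saline. The HFD group had the diet alone, and no chow-fed group and no saline-gavaged group was among the libraries. Strain, sex and age are not given in the labels. Total counts ran from 40621084 to 50938746 per library, and the 49 genes took between 1.86% (HFD 3) and 2.30% (HFD 1) of them. The lowest count of any of the 49 in any library was 108 (Syn3, HFD 3). Levels are given as CPM, the deposited counts scaled to library sizes adjusted by the trimmed mean of M-values (TMM), or, between genes, as the authors' deposited FPKM, which is scaled to gene length.

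At a chemical synapse, vesicles loaded with transmitter dock at the active zone, are primed there and fuse when calcium binds synaptotagmin and the SNARE proteins zip together. Neurexins on the axon bind neuroligins and LRRTM proteins on the dendrite across the cleft. Behind the postsynaptic membrane, scaffold proteins of the DLG, DLGAP, SHANK and HOMER families stack into the postsynaptic density and hold receptors and the kinase CaMKII. In the hippocampus most excitatory synapses use the vesicular glutamate transporter VGLUT1, encoded by Slc17a7, while Slc17a6 (VGLUT2) marks inputs from the thalamus and other deep nuclei and Slc32a1 (VGAT) loads inhibitory vesicles.

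The libraries differed in markers of other cell types and regions, some of them along the groups. Dentate granule and CA pyramidal markers were present. Prox1, a transcription factor of granule cells, had 10.3 to 42.3 CPM and Fibcd1, a CA1 gene, 10.7 to 47.3 CPM. Ppp1r1b, which encodes the striatal phosphoprotein DARPP-32, had 203 to 917 CPM. List means were 3.24 to 4.31 log2 CPM for 15 dentate granule, 3.14 to 4.33 for 15 CA pyramidal and 4.91 to 6.83 for 21 striatal markers. CPM is not scaled to gene length, so these values do not rank one list against another. One library, HFD 3, stood apart from the others. Its 12 oligodendrocyte markers averaged 8.52 log2 CPM, against 7.49 to 7.87 in the other 8 libraries, and its 21 striatal markers averaged 4.91, against 5.84 to 6.83. Its 18 pan-neuronal markers averaged 8.52, inside the 8.44 to 8.61 of the rest. The 6 measured blood genes averaged 3.45 to 4.36 in Trp, 3.39 to 4.30 in IPA and 4.81 to 6.61 in HFD, so that all HFD libraries lay above the others, with HFD 3 the highest. The 12 endothelial markers averaged 4.17 to 4.51 in Trp, 4.11 to 4.20 in IPA and 4.47 to 4.54 in HFD. Of these, 10 of the 12 were lower in every IPA library than in every HFD library, against 8.01% of all genes, with 0 passing the test. The 14 microglial markers averaged 4.70 to 5.08 in Trp, 4.31 to 4.34 in IPA and 4.17 to 4.32 in HFD. Of these, 5 of the 14 passed as higher in Trp than in HFD, against 0.214% of all genes. The part of these markers in the results below was not tested, and in bulk tissue fewer neurons and less RNA per neuron cannot be told apart. Replicate libraries differed by more than counting error, so no 2 were counted as 1.

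Ranges over the 9 libraries were taken for the 49 genes only, with no range over all genes beside them. The highest of the 9 libraries exceeded the lowest by a median of 1.38-fold, 34 genes varied by less than 1.5-fold, and 4 varied by more than 2-fold: Slc17a6 (3.75-fold), Sv2c (2.76-fold), Syn3 (2.46-fold) and Lrrtm3 (2.11-fold). The steadiest was Cplx1, which encodes the fusion clamp complexin 1, at 1.13-fold. Per length, Snap25, the SNARE protein of the axon membrane, was the most abundant with a mean of 1025 FPKM over the 9 libraries. Next came Syp (472 FPKM), Vamp2 (428 FPKM) and Camk2a (415 FPKM). Syn3, a synapsin of developing neurons, was the least abundant at 1.67 FPKM. Median levels were 67.6 FPKM for the presynaptic genes, 37.5 FPKM for the scaffold genes and 14.4 FPKM for the adhesion genes, whose highest, Nrxn2, reached 35.2 FPKM.

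None of the 49 genes passed an adjusted p under 0.05 (edgeR quasi-likelihood test, Benjamini-Hochberg over 18690 genes) in any of the 3 comparisons. Of all genes tested, 0.342% passed with Trp against HFD, 0.00535% with IPA against HFD and 0% between Trp and IPA. At an unadjusted p under 0.05, Trp against HFD had 12 of the 49 lower and 2 higher, where 5.54% of all genes were lower and 5.76% higher. These counts moved with the setting, to 6 lower and 3 higher with total count scaling (3.53% and 8.56% of all genes), 3 and 4 on FPKM (2.68% and 12.0%), 6 and 1 without HFD 1 (4.64% and 4.5%), 6 and 2 without HFD 2 (5.21% and 5.24%), and 25 and 3 without HFD 3 (6.81% and 7.82%). With the mean of the striatal markers as a covariate they were 23 and 2 (6.25% and 7.58%). With the oligodendrocyte mean as a covariate they were 25 and 3 (7.13% and 8.03%). IPA against HFD had 3 lower and 4 higher, against 5.46% and 4.95% of all genes. These became 1 and 5 without HFD 1 (3.7% and 3.05%), and 15 and 4 without HFD 3 (6.82% and 7.62%). Trp against IPA had 4 lower and 0 higher, against 2.07% and 2.43%. With the striatal covariate the counts for IPA against HFD and Trp against IPA were 14 and 3 (5.6% and 6.97%) and 4 and 0 (4.04% and 3.02%). With the oligodendrocyte covariate they were 10 and 6 (6.79% and 8.17%) and 14 and 1 (4.46% and 3.54%). DESeq2 called 1 of the 49 with Trp against HFD (Lrrtm4, adjusted p = 0.0113), against 1.6% of all genes, 1 with IPA against HFD (Sv2c, adjusted p = 0.00888), against 0.915%, and 0 between Trp and IPA, against 0.0803%. The authors' deposited table gives q = 0.0496 for Lrrtm4 in Trp against HFD and q = 0.00502 for Sv2c in IPA against HFD, with no member marked as changed. There 1 of the 49 had q under 0.05 in each comparison, against 1.53% of all genes for Trp and 1.24% for IPA.

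Fold changes were small and mostly below 0. For Trp against HFD, 38 of the 49 (77.6%) had a log2 fold change below 0 and 11 above, against 50.5% and 49.5% of all genes, with a median of -0.13 against -0.0022 over all genes. With total count scaling 36 were below 0 and on FPKM 31, where 39.9% and 31.4% of all genes were. For IPA against HFD 34 (69.4%) were below 0 and 15 above, against 51.1% and 48.9%, with medians of -0.07 and -0.0056. For Trp against IPA 34 were below 0 and 15 above, against 48.1% and 51.9%, with medians of -0.08 and 0.0077, but with scaling to the total count only 27 were and on FPKM only 21 were, where 34.9% and 27.1% of all genes lay below 0. Both comparisons against HFD share the HFD libraries.

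**Figure D1:**
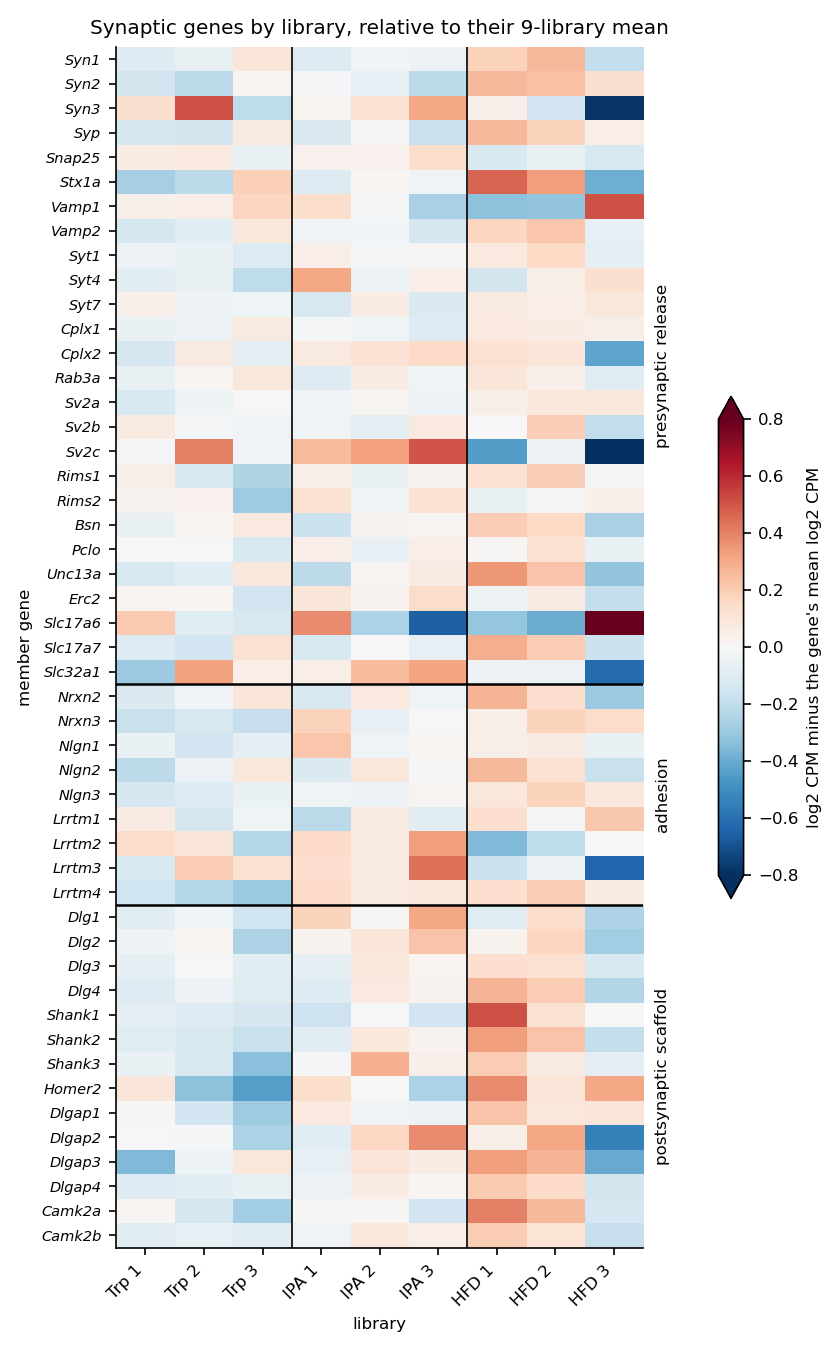
Log2 CPM of each of the 49 genes (rows, by compartment) in each library (columns, Trp, IPA and HFD), as the difference from that gene's mean over the 9 libraries; red is higher and blue lower, and the colours saturate at the ends of the bar. HFD 1 and HFD 2 are red and HFD 3 is blue for most scaffold genes, and Slc17a6 and Vamp1 are red in HFD 3.

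**Figure D2:**
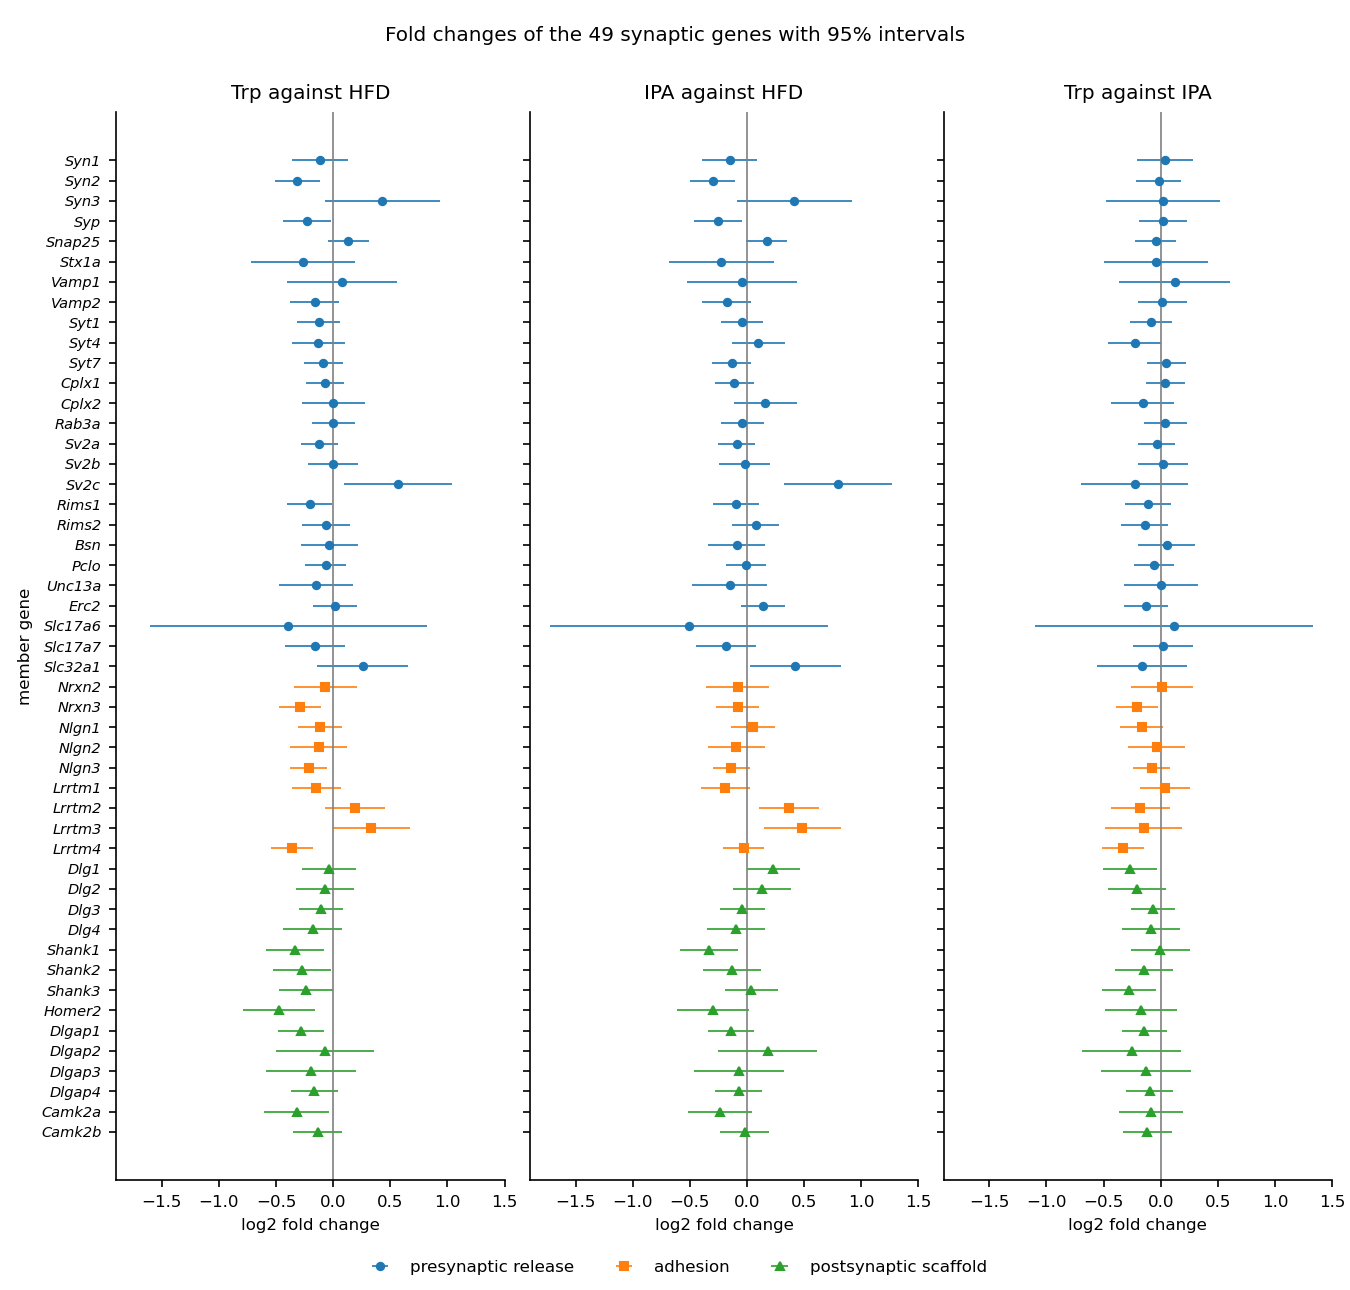
Log2 fold change of each of the 49 genes (points) with its 95% interval (bars) in the 3 comparisons from the edgeR fit; the marker shape and colour give the compartment. Slc17a6 has the widest interval, and no gene passed the adjusted threshold.

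Among the genes of the vesicle and its fusion, the largest fold change below 0 against HFD belonged to Syn2, one of the synapsins that tether vesicles to actin. It had 443, 424 and 496 CPM in Trp 1 to 3, 487, 467 and 423 CPM in IPA 1 to 3, and 585, 576 and 535 CPM in HFD 1 to 3. Every Trp and IPA library lay below every HFD library. The log2 fold change was -0.32 (SE 0.09, edgeR adjusted p = 0.221) for Trp against HFD and -0.30 (SE 0.09, adjusted p = 0.328) for IPA against HFD. Its relative Syn1 overlapped between all groups, at 405 ± 29.3, 394 ± 12.1 and 438 ± 70.6 CPM in Trp, IPA and HFD (SD, n = 3 each). Within a library, the counts of Syn2 were 108% to 116% of those of Syn1 in Trp, 107% to 128% in IPA and 117% to 149% in HFD. The exact permutation test of this ratio gave p = 0.1 for Trp against HFD, the smallest that 3 against 3 libraries allow, and 0.45 after adjustment over 18 ratio tests.

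The start regions of both synapsin genes are shown because Syn2 and Syn1 differ here in how far their groups lie apart. Each holds 250 bases before and 50 after the annotated start (RefSeq, GRCm38.p6), Syn2 at chr6:115134652-115134951 on the plus strand and Syn1 at chrX:20920869-20921168 on the minus strand, 5′ to 3′. Capitals mark matches, on either strand, to the GC box GGGCGG, the short cyclic AMP response element TGACG or the TATA motif TATAAA.
Syn2: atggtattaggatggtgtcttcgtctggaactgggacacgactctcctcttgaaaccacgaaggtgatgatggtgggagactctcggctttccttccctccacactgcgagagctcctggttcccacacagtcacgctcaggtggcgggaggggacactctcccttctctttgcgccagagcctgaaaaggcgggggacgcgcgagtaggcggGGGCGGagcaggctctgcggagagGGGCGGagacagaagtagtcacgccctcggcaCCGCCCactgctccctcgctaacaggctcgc
Syn1: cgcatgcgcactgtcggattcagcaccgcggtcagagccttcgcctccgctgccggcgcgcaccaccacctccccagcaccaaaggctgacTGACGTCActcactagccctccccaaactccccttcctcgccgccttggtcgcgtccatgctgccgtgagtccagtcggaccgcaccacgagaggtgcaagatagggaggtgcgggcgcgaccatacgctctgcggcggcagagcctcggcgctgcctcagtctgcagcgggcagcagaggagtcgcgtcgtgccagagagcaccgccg
The Syn2 window shown, the upstream one of its 2 RefSeq windows, held 3 GC boxes, and the other is not described here. The only Syn1 window held no GC box but 2 response elements, 1 on each strand, which overlap in a palindrome. In these searches 35.66% of all 32851 windows of this length held a GC box, 20.81% the response element and 13.62% the TATA motif. RefSeq windows were at hand for 36 of the 49 genes, 57 windows in all, and 27 of these (47.37%), 10 (17.54%) and 6 (10.53%) held them.

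The vesicle membrane proteins gave values in both directions. Sv2c, the SV2 form most abundant in basal ganglia, had 58.5, 77.9 and 58.2 CPM in Trp, 70.3, 73.9 and 83.6 CPM in IPA, and 43.3, 57.3 and 30.3 CPM in HFD. Every Trp and IPA library lay above every HFD library. The log2 fold change was 0.57 (SE 0.21, adjusted p = 0.349) for Trp and 0.80 (SE 0.21, adjusted p = 0.313) for IPA against HFD. The striatal markers ran the same way between groups, with a mean of 6.23 ± 0.26 log2 CPM in Trp, 6.60 ± 0.20 in IPA and 5.76 ± 0.80 in HFD, 21 of 21 markers above 0 in both comparisons with HFD and 0 passing the test. With the striatal mean as a covariate, Sv2c stood at 0.33 for Trp and 0.34 for IPA against HFD, and without HFD 3 at 0.37 and 0.59.

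The Sv2c start region lies at chr13:96132528-96132827 on the minus strand of the same build, and is shown because Sv2c had the largest fold change of the 49 in both comparisons with HFD.
Sv2c: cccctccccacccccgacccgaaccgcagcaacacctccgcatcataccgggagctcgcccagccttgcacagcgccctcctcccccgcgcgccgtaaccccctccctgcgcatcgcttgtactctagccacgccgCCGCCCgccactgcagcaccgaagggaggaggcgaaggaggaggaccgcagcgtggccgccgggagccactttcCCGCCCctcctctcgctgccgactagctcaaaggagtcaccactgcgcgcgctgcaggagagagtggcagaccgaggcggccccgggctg
It held 2 GC boxes, neither of the other motifs, and 71.7% G and C.

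Sv2a, the SV2 form found at nearly all synapses, varied little within groups, with 391 ± 17.2 CPM in Trp, 401 ± 9.21 in IPA and 426 ± 5.98 in HFD. Its Trp libraries (372, 395 and 406 CPM) and IPA libraries (398, 411 and 393 CPM) lay below all HFD libraries (419, 429 and 429 CPM), with log2 fold changes of -0.12 and -0.09 (SE 0.08 each, adjusted p = 0.587 and 0.714). Sv2b showed no such order, at 478 ± 18.3, 471 ± 25.9 and 478 ± 65.7 CPM in Trp, IPA and HFD. Syp, the vesicle protein synaptophysin, had 1217, 1216 and 1414 CPM in Trp, 1242, 1355 and 1189 CPM in IPA, and 1606, 1519 and 1393 CPM in HFD. Only IPA lay wholly below HFD, at -0.26 (SE 0.10, adjusted p = 0.414), with -0.23 (SE 0.10, adjusted p = 0.381) for Trp. An antisense gene overlaps 16.79% of the exonic bases of Syp in GENCODE M21, and the strand setting of the authors' counting is not given in the sources used here, so reads of both cannot be told apart.

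Of the SNARE genes, Snap25 was higher in all Trp libraries (2464, 2498 and 2282 CPM) and all IPA libraries (2424, 2422 and 2605 CPM) than in HFD (2169, 2276 and 2161 CPM). The differences were small, with log2 fold changes of 0.13 (SE 0.08, adjusted p = 0.597) for Trp and 0.17 (SE 0.08, adjusted p = 0.488) for IPA. Its partners had lower means in both groups than in HFD or showed no order. Vamp2, the main vesicle SNARE of the forebrain, averaged 1007 ± 82.3 CPM in Trp, 996 ± 41.8 in IPA and 1125 ± 117 in HFD (log2 fold changes -0.16 and -0.18, SE 0.10 each, adjusted p = 0.591 and 0.554). Stx1a, the plasma membrane syntaxin, averaged 174 ± 31.5, 179 ± 7.40 and 209 ± 60.4 CPM in Trp, IPA and HFD, and its HFD libraries held both the highest value (255 CPM, HFD 1) and the lowest (141 CPM, HFD 3). Vamp1, a relative of Vamp2 common in brainstem and spinal cord, was the mirror image within HFD, at 134 and 135 CPM in HFD 1 and 2 and 240 CPM in HFD 3. Its counts were 17.2% to 18.3% of those of Vamp2 in Trp, 14.8% to 18.2% in IPA, and 11.4%, 11.1% and 24.2% in HFD 1 to 3. The log2 fold change of Vamp1 for Trp against HFD was 0.08 (SE 0.21) with HFD 3 and 0.41 (SE 0.11, adjusted p = 0.0719) without it.

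The calcium sensors and their helpers overlapped in most comparisons. Syt1, the fast sensor of release, had 1674, 1665 and 1600 CPM in Trp, below all IPA libraries (1790, 1711 and 1741 CPM) at -0.09 (SE 0.09, adjusted p = 0.987), and 1798 ± 146 CPM in HFD. Syt4, a synaptotagmin of dense-core vesicles, had 227, 232 and 209 CPM in Trp, 299, 233 and 250 CPM in IPA and 217, 249 and 264 CPM in HFD, or -0.23 (SE 0.11, adjusted p = 0.987) for Trp against IPA. An antisense gene overlaps 14.54% of its exonic bases. Syt7, a slow sensor, was lower in every Trp library (229, 216 and 217 CPM) than in HFD (233, 231 and 237 CPM), at -0.08 (SE 0.08, adjusted p = 0.75). In IPA it overlapped HFD, at 203, 231 and 205 CPM (-0.13, SE 0.08, adjusted p = 0.573). Cplx1 had 736 ± 36.5, 715 ± 24.0 and 772 ± 7.63 CPM in Trp, IPA and HFD. Cplx2 averaged 1166, 1301 and 1164 CPM, with 899 CPM in HFD 3 below all others and -0.16 (SE 0.13, adjusted p = 0.987) for Trp against IPA. Rab3a, the vesicle GTPase, was at 402 ± 20.9, 391 ± 22.2 and 402 ± 27.7 CPM. Syn3 gave 3.83 to 6.32 CPM in Trp, 4.48 to 5.48 in IPA and 2.56 to 4.54 in HFD (log2 fold changes 0.43 and 0.41, SE 0.23 each, adjusted p = 0.526 and 0.556), and Timp3 overlaps 14.11% of its exonic bases on the other strand.

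The 6 active zone genes, which build the release site, did not separate Trp or IPA from HFD in any case. Rims1, which links vesicles to calcium channels, had 263, 233 and 216 CPM in Trp, 263, 246 and 260 CPM in IPA and 276, 292 and 253 CPM in HFD. The Trp and HFD ranges overlapped, with a log2 fold change of -0.21 (SE 0.09, adjusted p = 0.426). Trp against IPA gave -0.11 for Rims1 (SE 0.09), -0.14 for Rims2 (SE 0.10) and -0.13 for Erc2 (SE 0.09), all with adjusted p = 0.987, and only Erc2, the ELKS family scaffold, had Trp (153.1, 153.7 and 135.8 CPM) wholly below IPA (161.3, 154.3 and 167.4 CPM). Unc13a, the priming factor Munc13-1, and Bsn, the giant scaffold Bassoon, were highest in HFD 1 (248 and 236 CPM) and lowest in HFD 3 (157 and 173 CPM). Pclo, its relative Piccolo, was flat by count, with 155 ± 7.61, 161 ± 7.53 and 162 ± 10.3 CPM in Trp, IPA and HFD. Its deposited FPKM instead split into a high and a low level, with 16.3, 9.51 and 8.40 in Trp, 16.9, 16.2 and 15.5 in IPA, and 8.79, 9.79 and 15.5 in HFD, which its counts do not share.

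The transmitter loaders held the widest range of the module. Slc17a6, the VGLUT2 gene, had 65.2, 52.7 and 51.7 CPM in Trp, 73.4, 47.3 and 35.8 CPM in IPA, and 45.5, 42.9 and 134 CPM in HFD. One library, HFD 3, set the HFD mean, and without it the log2 fold change of Trp against HFD was 0.36 (SE 0.29, adjusted p = 0.659), in place of -0.39 (SE 0.50) with it. The thalamus and habenula markers were also highest in HFD 3, at a mean of 4.56 log2 CPM against 2.80 to 4.05 in the other 8 libraries. Slc17a7, the VGLUT1 gene, had 855, 824 and 999 CPM in Trp, 840, 920 and 877 CPM in IPA, and 1121, 1057 and 813 CPM in HFD (log2 fold changes -0.16 and -0.18, SE 0.12 each). Counts of Slc17a6 were 5.17% to 7.62% of those of Slc17a7 in Trp, 4.09% to 8.74% in IPA, and 4.06%, 4.06% and 16.5% in HFD 1 to 3.

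Slc32a1, the inhibitory vesicle transporter, had 71.6, 110 and 90.9 CPM in Trp, 90.8, 104 and 109 CPM in IPA, and 85.1, 84.8 and 57.1 CPM in HFD. All IPA libraries lay above all HFD libraries, at 0.42 (SE 0.18, adjusted p = 0.469), while Trp overlapped both, at 0.26 against HFD and -0.16 against IPA (SE 0.18 each). Relative to Slc17a7 its counts were 8.37%, 13.3% and 9.09% in Trp, 10.8%, 11.3% and 12.5% in IPA, and 7.60%, 8.03% and 7.03% in HFD, so that both supplemented groups lay wholly above HFD. The exact permutation p was 0.1 for each, the smallest possible, and 0.45 after adjustment over the 18 ratio tests. With the striatal mean as a covariate the log2 fold change of Slc32a1 for IPA against HFD was 0.05. That mean was itself higher in IPA (6.60 ± 0.20 log2 CPM) than in HFD (5.76 ± 0.80). The part of striatal tissue in the Slc32a1 values was not tested. An antisense gene overlaps 24.92% of the exonic bases of Slc32a1.

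The adhesion genes were led by Lrrtm4, a postsynaptic partner of presynaptic heparan sulphate proteoglycans best known from dentate granule cells. It had 31.7, 30.2 and 28.8 CPM in Trp, 39.3, 37.2 and 37.5 CPM in IPA, and 38.8, 40.6 and 37.0 CPM in HFD. All Trp libraries lay below all others, with a log2 fold change of -0.36 against HFD (SE 0.08, adjusted p = 0.117) and -0.33 against IPA (SE 0.08, adjusted p = 0.987), while IPA and HFD overlapped at -0.03. The difference from HFD had the smallest p of the 49 genes, and it passed the threshold without HFD 3 (-0.39, adjusted p = 0.0474). Other settings weakened it, with an edgeR adjusted p of 0.284 without HFD 1 and 0.492 without Trp 2. With only the 6 libraries compared it was 0.263. An antisense gene, Gm4409, overlaps 25.1% of its exonic bases.

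The upstream one of the 2 RefSeq start windows of Lrrtm4 lies at chr6:80018627-80018926 on the plus strand, and is shown because Lrrtm4 was the member nearest the threshold.
Lrrtm4: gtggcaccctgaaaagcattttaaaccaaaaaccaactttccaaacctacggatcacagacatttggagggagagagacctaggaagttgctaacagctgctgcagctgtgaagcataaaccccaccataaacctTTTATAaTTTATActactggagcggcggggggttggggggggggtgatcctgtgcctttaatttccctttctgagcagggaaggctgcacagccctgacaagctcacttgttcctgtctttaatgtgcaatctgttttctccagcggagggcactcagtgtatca
It held 2 TATA motifs, both on the other strand and a single base apart, no GC box and no response element, and 48.7% G and C, with capitals as above. The downstream window, not shown, held none of these motifs.

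The LRRTM family split. Lrrtm2 and Lrrtm3 had higher means in both supplemented groups than in HFD, and Lrrtm1 and Lrrtm4 lower ones. These directions held under TMM and total count scaling and on FPKM alike, though Lrrtm4 for IPA stood at only -0.03. Lrrtm2 had 83.7, 80.8 and 64.6 CPM in Trp, 84.3, 79.2 and 95.3 CPM in IPA, and 59.1, 65.6 and 75.6 CPM in HFD. Lrrtm3 had 55.8, 70.0 and 66.0 CPM in Trp, 66.6, 63.8 and 82.3 CPM in IPA, and 54.0, 58.9 and 39.0 CPM in HFD. For both, IPA lay wholly above HFD and Trp overlapped it. The log2 fold changes were 0.19 (SE 0.12, adjusted p = 0.598) for Trp and 0.37 (SE 0.12, adjusted p = 0.349) for IPA in Lrrtm2, and 0.34 (SE 0.15, adjusted p = 0.442) and 0.48 (SE 0.15, adjusted p = 0.345) in Lrrtm3. With the striatal mean, itself higher in IPA than in HFD, as a covariate the value of Lrrtm3 for IPA was 0.14. Lrrtm1 had 49.2 ± 3.42, 47.8 ± 4.80 and 54.5 ± 4.37 CPM in Trp, IPA and HFD, with -0.15 and -0.19 (SE 0.10 each, adjusted p = 0.639 and 0.535). For Trp against IPA, Lrrtm2 gave -0.18 (SE 0.12, adjusted p = 0.987).

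**Figure D3:**
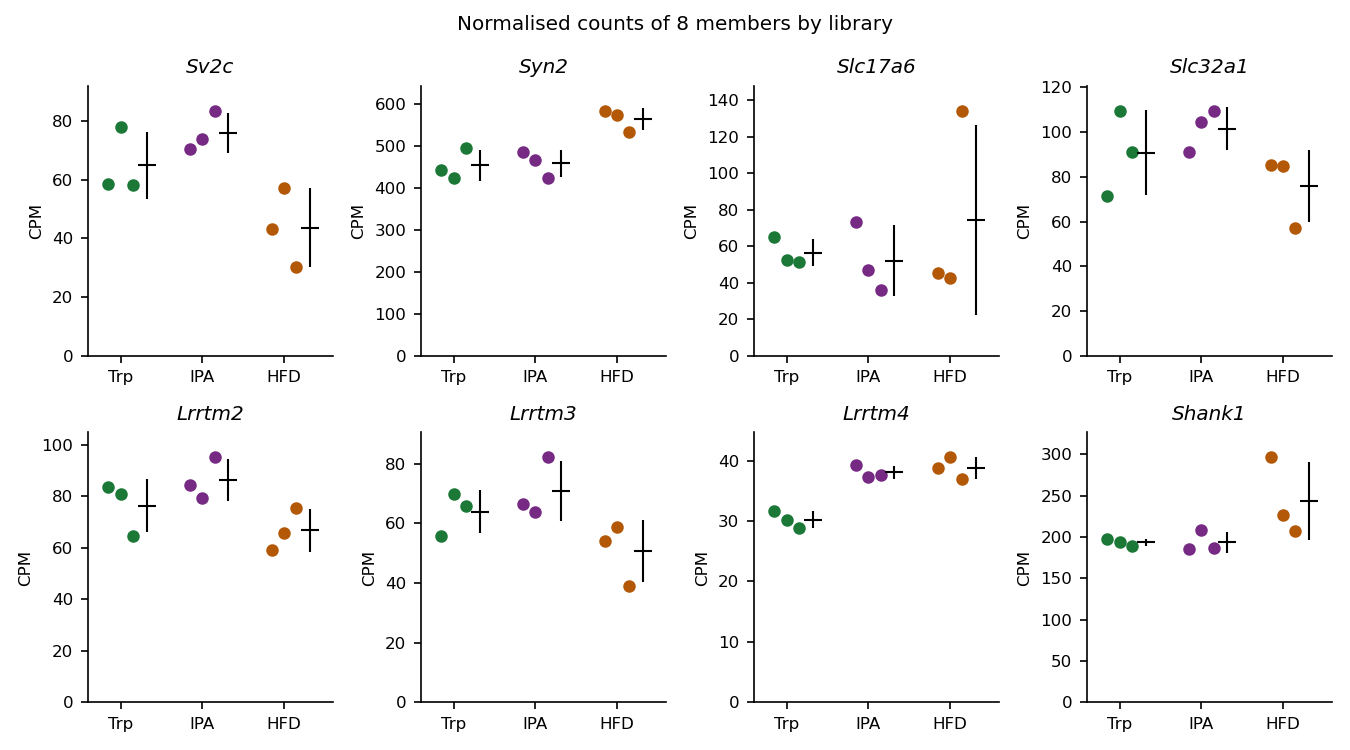
CPM of 8 members in each library (points, in the order of replicates 1 to 3), with the mean and SD of each group of 3 beside them (bars); Trp, IPA and HFD run from left to right and each axis starts at 0. Lrrtm4 is lower in all 3 Trp libraries, Syn2 is higher in all 3 HFD libraries, and Slc17a6 reaches 134 CPM in HFD 3.

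Nrxn3, a neurexin gene, was lower in every Trp library (171, 177 and 171 CPM) than in IPA (220, 185 and 194 CPM) and HFD (200, 219 and 214 CPM). The log2 fold change was -0.29 against HFD (SE 0.09, adjusted p = 0.23) and -0.21 against IPA (SE 0.09, adjusted p = 0.987), and IPA against HFD gave -0.08 (SE 0.09, adjusted p = 0.768). Nrxn2 overlapped throughout, at 207 ± 15.4, 205 ± 14.1 and 217 ± 41.6 CPM in Trp, IPA and HFD. Nlgn3, a neuroligin of both excitatory and inhibitory synapses, had 80.2, 81.9 and 84.8 CPM in Trp, 86.2, 85.2 and 89.3 CPM in IPA, and 93.5, 99.6 and 93.3 CPM in HFD, so that all 3 groups lay apart from one another. The log2 fold changes were -0.21 (SE 0.07, adjusted p = 0.296), -0.14 (SE 0.07, adjusted p = 0.544) and -0.08 (SE 0.07, adjusted p = 0.987) with Trp against HFD, with IPA against HFD and between Trp and IPA, the last of which was above 0 on FPKM. Another gene on the same strand, Gm21986, shares 41.24% of the exonic bases of Nlgn3, so its counts are uncertain.

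Nlgn1, the neuroligin of excitatory synapses, had 59.4, 55.4 and 58.8 CPM in Trp, below all IPA libraries (71.9, 60.6 and 62.4 CPM), and 62.7 ± 2.91 CPM in HFD. Trp against IPA gave -0.17 (SE 0.09, adjusted p = 0.987) by count and 0.13 on FPKM, and Trp against HFD -0.12 by count and 0.16 on FPKM, so the direction of both depends on the unit. Nlgn2, the neuroligin of inhibitory synapses, overlapped in every comparison, at 159 ± 16.5, 163 ± 11.6 and 174 ± 26.3 CPM in Trp, IPA and HFD. Of the 9 adhesion genes, 4 (Nrxn3, Nlgn1, Nlgn3 and Lrrtm4) had all Trp libraries below all HFD libraries in CPM, as 7.43% of all genes did, and also below all IPA libraries, as 5.55% did.

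In the scaffold, all 14 genes had a log2 fold change below 0 for Trp against HFD, between -0.47 and -0.03, with a median of -0.19, while 13 did so with total count scaling and 11 on FPKM, where the median was -0.08. The median was -0.09 without HFD 1, -0.13 without HFD 2 (11 of 14 below 0) and -0.30 without HFD 3. None passed the test with all 9 libraries. Of the SHANK genes, which form the deep layer of the density, Shank1 had 197, 194 and 189 CPM in Trp, 185, 208 and 187 CPM in IPA, and 297, 227 and 207 CPM in HFD. Its Trp libraries lay below all HFD libraries and close to one another in CPM, at -0.33 (SE 0.12, adjusted p = 0.311), and IPA touched HFD at -0.33 (SE 0.12, adjusted p = 0.39). Shank2 had 112, 110 and 106 CPM in Trp, 113, 127 and 122 CPM in IPA, and 151, 140 and 105 CPM in HFD, with HFD 3 below every other library (-0.27 for Trp against HFD, SE 0.12, adjusted p = 0.399). Shank3 had 122, 116 and 100 CPM in Trp, 125, 154 and 130 CPM in IPA, and 145, 133 and 120 CPM in HFD, giving -0.24 for Trp against HFD (SE 0.11, adjusted p = 0.439) and -0.28 against IPA (SE 0.11, adjusted p = 0.987).

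Homer2, an adaptor that joins SHANK proteins to metabotropic glutamate receptors, had 48.1, 35.9 and 33.1 CPM in Trp, 49.6, 44.8 and 37.8 CPM in IPA, and 58.4, 48.2 and 55.7 CPM in HFD. Trp lay below HFD by a narrow gap, at -0.47 (SE 0.14, adjusted p = 0.251), and IPA overlapped it at -0.30 (SE 0.14, adjusted p = 0.501). Among the DLGAP genes, which bridge DLG and SHANK proteins, Dlgap1 had 336, 300 and 274 CPM in Trp, 352, 327 and 325 CPM in IPA, and 392, 356 and 359 CPM in HFD. Both supplemented groups lay below HFD, at -0.28 (SE 0.09, adjusted p = 0.268) for Trp and -0.14 (SE 0.09, adjusted p = 0.619) for IPA. Dlgap2 and Dlgap3 had their lowest HFD value in HFD 3, at 23.2 and 254 CPM, below all the other libraries. Dlgap2 gave -0.25 for Trp against IPA (SE 0.19, adjusted p = 0.987). Dlgap4 was tight in Trp (182, 183 and 187 CPM) and lay below IPA (189, 204 and 197 CPM), with 207 ± 26.5 CPM in HFD.

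The DLG genes encode the membrane-associated guanylate kinases that anchor receptors. Dlg4, the gene of PSD-95, had 656, 684 and 660 CPM in Trp, 656, 744 and 720 CPM in IPA, and 853, 813 and 601 CPM in HFD, so that HFD held both ends of the range (-0.18 and -0.10 against HFD, SE 0.12 each). Dlg1, the gene of SAP97, was lower in every Trp library (160, 167 and 152 CPM) than in IPA (193, 172 and 211 CPM), and HFD spanned 143 to 188 CPM. It gave -0.27 for Trp against IPA (SE 0.11, adjusted p = 0.987) and 0.23 for IPA against HFD (SE 0.11, adjusted p = 0.481). Dlg2, the gene of PSD-93, likewise had Trp (374, 390 and 326 CPM) below IPA (394, 412 and 451 CPM), at -0.21 (SE 0.12, adjusted p = 0.987), while Dlg3 overlapped throughout, at 182 ± 5.74, 191 ± 10.6 and 196 ± 19.2 CPM in Trp, IPA and HFD.

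Camk2a, the alpha subunit of CaMKII and the most abundant scaffold transcript per length, had 2286, 2060 and 1861 CPM in Trp, 2272, 2269 and 2034 CPM in IPA, and 2986, 2699 and 2060 CPM in HFD. HFD 1 and 2 lay above every other library and HFD 3 among the supplemented ones. The log2 fold change was -0.32 (SE 0.13, adjusted p = 0.375) for Trp and -0.24 (SE 0.13, adjusted p = 0.548) for IPA against HFD. Camk2b, the beta subunit, had 743 ± 6.81, 806 ± 30.6 and 816 ± 111 CPM in Trp, IPA and HFD, with Trp wholly below IPA. The ratio of Camk2a to Camk2b was 308%, 274% and 252% in Trp, 294%, 273% and 250% in IPA and 329%, 318% and 297% in HFD. IPA lay wholly below HFD in this ratio, with an exact permutation p of 0.1 and 0.45 after adjustment.

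Set side by side, the 3 compartments differed in their medians for Trp against HFD: -0.08 for presynaptic release (17 of 26 below 0), -0.13 for adhesion (7 of 9) and -0.19 for the scaffold (14 of 14). Their order was not stable to the HFD libraries, since without HFD 1 the medians were -0.07, -0.10 and -0.09, while on FPKM they were -0.02, -0.04 and -0.08, where the median of all genes was 0.07. For IPA against HFD the medians lay close together, at -0.07 (18 of 26), -0.08 (6 of 9) and -0.07 (10 of 14). Without HFD 1 these were -0.03, 0.0069 and 0.0021 (7 of the 14 scaffold genes below 0), without HFD 2 -0.04, -0.04 and -0.02, and without HFD 3 -0.10, -0.07 and -0.17. For Trp against IPA they were -0.0069 (13 of 26), -0.15 (7 of 9) and -0.13 (14 of 14). On FPKM these Trp against IPA medians were 0.06, 0.0093 and -0.05, where the median of all genes was 0.08. These are descriptions of gene lists, and no test was made between compartments. By library, the 9 adhesion genes averaged 6.38 ± 0.01 log2 CPM in Trp, 6.50 ± 0.03 in IPA and 6.46 ± 0.08 in HFD, and the 14 scaffold genes 7.77 ± 0.06, 7.91 ± 0.05 and 7.96 ± 0.20.

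**Figure D4:**
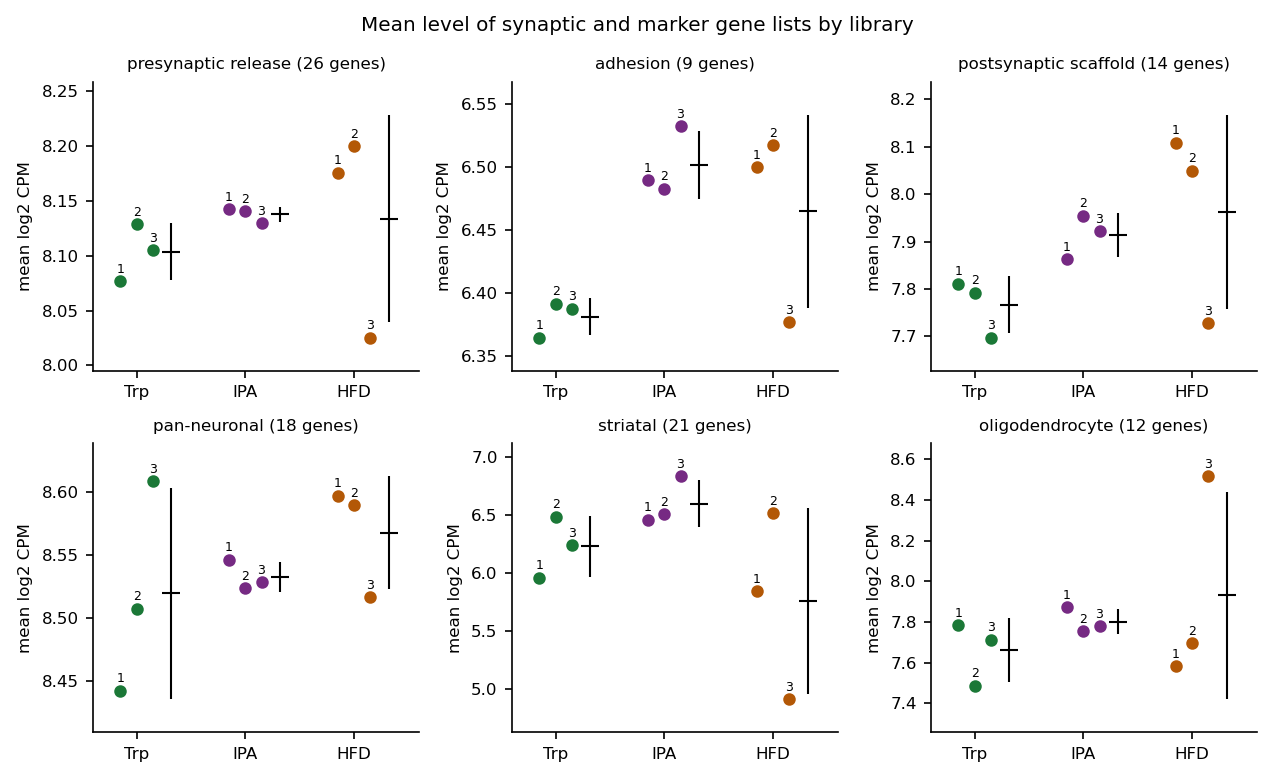
Mean log2 CPM of the 3 compartments (top) and of the pan-neuronal, striatal and oligodendrocyte markers (bottom) in each library; points carry the replicate number, and the bars give the mean and SD of each group of 3, with Trp, IPA and HFD from left to right. HFD 3 lies far below HFD 1 and 2 for all 3 compartments and the striatal list and above every library for the oligodendrocyte list, and the vertical axes do not start at 0.

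Groups without overlap were counted in CPM, as a description. For Trp against HFD, 10 of the 49 had all Trp libraries below all HFD libraries, against 7.43% of all genes, and 2 (Snap25 and Sv2c) had them above, against 8.06%. The 10 were 3 of the 26 presynaptic genes (Syn2, Syt7 and Sv2a), 4 of the 9 adhesion genes and 3 of the 14 scaffold genes (Shank1, Homer2 and Dlgap1). For IPA against HFD 6 were below (Syn2, Syp, Cplx1, Sv2a, Nlgn3 and Dlgap1) and 5 above (Snap25, Sv2c, Slc32a1, Lrrtm2 and Lrrtm3), against 8.01% and 7.19% of all genes. For Trp against IPA 13 were below and 0 above, against 5.55% and 5.61%, and they were 3 of the 26 presynaptic, 4 of the 9 adhesion and 6 of the 14 scaffold genes. The counts with Trp depended on the unit. Of the 13, only Lrrtm4 also lay wholly below IPA on FPKM, while Sv2b then lay wholly above IPA. Of the 10 below HFD, only Nrxn3, Nlgn3, Lrrtm4 and Dlgap1 stayed apart on FPKM, and Snap25 and Sv2c stayed above HFD. Shares of all genes were not counted on FPKM.

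The HFD libraries themselves spanned much of the range. HFD 3 was the lowest of the 9 libraries for 23 of the 49 genes (46.9%, against 18.1% of all genes), 9 of them among the 14 scaffold genes. HFD 1 or HFD 2 was the highest for 29 (59.2%, against 23.3% of all genes), and HFD 1 alone for 10 of the 14 scaffold genes. The median coefficient of variation of the 49 genes was 7.24% in Trp, 6.43% in IPA and 12.83% in HFD, where all genes had 11.06%, 10.52% and 13.52%. The values over all genes were not limited to genes of similar level. The 4 genes that were highest in HFD 3 were Slc17a6, Vamp1, Syt7 and Lrrtm1.

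Without HFD 3, Trp against HFD had 3 of the 49 genes past the threshold, against 1.69% of all genes: Camk2a (-0.46, SE 0.10, adjusted p = 0.0403), Lrrtm4 (-0.39, SE 0.09, adjusted p = 0.0474) and Shank2 (-0.41, SE 0.08, adjusted p = 0.0245), all lower in Trp. Then 33 of the 49 had Trp wholly below HFD 1 and 2, against 15.6% of all genes, namely 14 of the 26 presynaptic, 6 of the 9 adhesion and 13 of the 14 scaffold genes, and 4 had Trp above, against 16.3%. The scaffold median was -0.30 and the adhesion median -0.21, whereas leaving out HFD 1 instead gave -0.09 and -0.10, with 0 calls. For IPA against HFD none passed without HFD 3 by edgeR, against 0.272% of all genes, 15 were lower and 4 higher at an unadjusted p under 0.05, against 6.82% and 7.62% of all genes, and 24 lay wholly below HFD 1 and 2, against 17.2% of all genes, with 6 above, against 16.9%. Those fits rest on only 2 HFD libraries. HFD 3 was the lowest library for 23 of the 49 genes, so leaving it out moves these genes towards lower values against HFD by construction. The non-overlap counts without HFD 3 were chosen after seeing the data and were made for no other left-out library. With the oligodendrocyte mean as a covariate and all 9 libraries, Shank1 and Shank2 passed for Trp against HFD, against 1.42% of all genes, and Sv2c for IPA against HFD, against 0.294%.

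**Figure D5:**
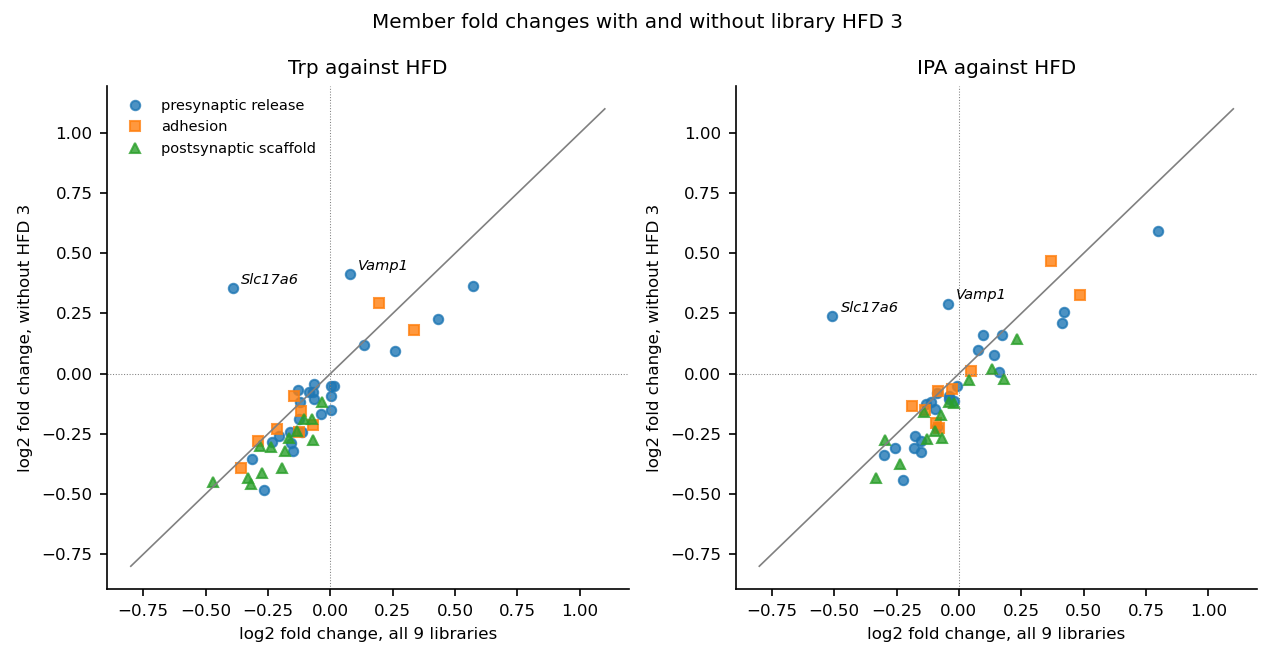
Log2 fold change of each of the 49 genes with all 9 libraries (horizontal axis) and without HFD 3 (vertical axis) in the panels for Trp (left) and IPA (right) against HFD; the solid line marks equal values and the marker gives the compartment. Of the 49 points in each panel 39 lie below the line, and Slc17a6 and Vamp1 lie far above it.

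Other synaptic genes outside the 49 gave 0 calls as well. The 53 other presynaptic genes had medians of -0.03, -0.04 and 0.01 with Trp against HFD, with IPA against HFD and between Trp and IPA, the 40 other adhesion genes -0.03, -0.05 and -0.01, and the 43 other postsynaptic genes -0.11, -0.01 and -0.09. For Trp against HFD 33 of 53, 29 of 40 and 30 of 43 were below 0, against 50.5% of all genes, and 7, 4 and 8 of them had an unadjusted p under 0.05 on that side, against 5.54%. The smallest p values for Trp against HFD belonged to Syt17 (-0.47, SE 0.14) and Slc17a8 (0.75, SE 0.23) among presynaptic genes, Il1rapl1 (-0.40, SE 0.13) and Tenm2 (-0.52, SE 0.18) among adhesion genes, and Tiam1 (-0.41, SE 0.12) and Cnih2 (-0.28, SE 0.10) among postsynaptic genes. For IPA against HFD they were Syt17 (-0.42) and Syt13 (-0.24), Igsf11 (0.38) and Cbln1 (-0.60), and Cnih2 (-0.33) and Homer1 (0.44). For Trp against IPA they were Unc13c (-0.56) and Synpr (-0.21), Il1rapl1 (-0.51) and Flrt3 (-0.31), and Homer1 (-0.55) and Tiam1 (-0.30).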

How the data were processed

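The 9 libraries were made from oligo(dT)-selected RNA with random hexamers, per the labels' protocols, which describe no strand marking. StringTie 2.1.3b and mm10 are the tool and build named, per the submitters' processing notes. The aligner, counter and strand setting were not given in the sources used here. The authors deposited whole-number counts per gene and library, and FPKM, per the file headers. They also deposited log2 fold changes, p-values and q-values against HFD, used here only where named. Columns coded WTB (HFD), HEB (IPA) and HOB (Trp) were assigned by the sample descriptions, where the codes are not explained. The starts and ends in the table did not match GENCODE M21 for any member, so none is printed; start regions are RefSeq windows, and exon overlaps come from GENCODE M21.

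The count test was edgeR 4.0.16 under R 4.3.3: filterByExpr with a minimum count of 10, TMM scaling, and a robust quasi-likelihood fit with 1 mean per group over all 9 libraries. Tests were two-sided, adjusted by Benjamini-Hochberg over all genes, with a threshold of 0.05. SE is the log2 fold change divided by the root of its F statistic, and list means use log2 CPM with a prior count of 2. Counting error is small at this depth, where a count of 0 allows 0.0584 to 0.0751 CPM (3 counts). Ratios within a library were tested by exact permutation. The procedure was tested on simulated data. Alternatives were DESeq2 1.42.0, other scalings and filters, limma 3.58.1 on log2 FPKM, a replicate block, marker covariates and leaving out each library. The members and gene lists were chosen with earlier results of these data known. The members with the smallest unadjusted p per comparison and compartment (up to 8 presynaptic, 5 adhesion and 5 scaffold) are given with their tests. Replicates are separate mice, per the labels. Figures used matplotlib 3.10.9.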

Additional observations from a re-analysis of the deposited data

How the results depend on the processing

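The edgeR fit called 0 of the 49 genes in each comparison; DESeq2 called 1 for Trp against HFD and 1 for IPA against HFD, and the oligodendrocyte covariate, chosen after seeing the data, 2 and 1. Leaving out 1 library gave 0 to 3 calls for Trp against HFD (3 without HFD 3) and 0 in every case for the others. With the replicate number as a block, 0 members were called in each comparison and the medians for Trp against HFD were -0.08, -0.13 and -0.18 for presynaptic, adhesion and scaffold genes. Same-numbered libraries did not deviate together (r from -0.20 to 0.05), and differently numbered ones gave r from -0.14 to 0.26. Deviations from means of only 3 libraries cannot exclude a pairing, so whether the numbers pair mice is not settled. The genes called among all for Trp against HFD numbered 64, but 299 by DESeq2, 323 without HFD 3 and 23 with the block.

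Medians that moved by more than the spread between replicates were these. For adhesion, Trp against HFD gave -0.0399, -0.0404 and -0.0392 on FPKM with pseudocounts of 0.5, 0.1 and 1 and -0.195 with the oligodendrocyte covariate; IPA against HFD gave -0.0029 with the pan-neuronal covariate. For Trp against IPA, presynaptic genes gave 0.0128 with upper quartile scaling, 0.0509 with the total count, 0.0632, 0.0634 and 0.0605 on FPKM and -0.0417 with the oligodendrocyte covariate. Adhesion genes gave -0.0916 with the total count, 0.0093, 0.0096 and 0.0089 on FPKM, -0.0551 with the striatal and -0.120 with the pan-neuronal covariate, and scaffold genes -0.0765, then -0.0503, -0.0512 and -0.0493, and -0.0521 with the striatal covariate. On FPKM the direction changed for 7 of the 49 members with Trp against HFD (Cplx1, Rims2, Bsn, Nlgn1, Dlg1, Dlg2 and Dlgap2), 2 with IPA against HFD (Pclo and Camk2b) and 13 with Trp against IPA. The 13 were Syn2, Snap25, Stx1a, Sv2a, Nlgn2, Dlg3, Dlg4, Shank1, Camk2a, Syt1 (0.0019 at each pseudocount), Nlgn1 (0.130, 0.139 and 0.121), Nlgn3 (0.0093, 0.0096 and 0.0089) and Dlgap1 (0.0774, 0.078 and 0.0767). FPKM and total counts are not rescaled by TMM, which moves the median of all genes for Trp against IPA to 0.0804 and 0.065; other causes were not tested. Leaving out 1 library gave adhesion medians of -0.214 to -0.0981 for Trp against HFD, -0.0794 to 0.0069 for IPA against HFD and -0.214 to -0.0579 for Trp against IPA, and presynaptic medians of -0.0525 to 0.0213 for Trp against IPA. Other medians with 1 library left out stayed within the spread between replicates. Among them, scaffold medians were -0.302 to -0.0913 for Trp against HFD and -0.166 to 0.0021 for IPA against HFD. Presynaptic medians for IPA against HFD were -0.0985 to -0.028.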

Other observations

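A few members had almost no spread in CPM inside 1 of the groups. Shank1 varied over 189 to 197 CPM in Trp, Dlgap4 over 182 to 187 CPM and Camk2b over 738 to 751 CPM, while the coefficient of variation of the 14 scaffold genes had a median of 6.84% in Trp, 6.33% in IPA and 14.57% in HFD. Nrxn3 in Trp (171 to 177 CPM) and Sv2a in HFD (419 to 429 CPM) were as narrow. These genes were chosen after their values were seen, and no test was made. Dlgap4 and Camk2b kept no order against HFD, since HFD 3 (176 and 693 CPM) lay below every Trp library. On FPKM Camk2b had 174, 192 and 179 in Trp, which overlapped IPA.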
